A study of Mus musculus with 23 samples.

Results

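Genes of fatty acid and triglyceride synthesis were followed in the livers of wild-type and *Pxr*-/- mice given the PXR ligand PCN or its vehicle. The list held 36 genes, taken by name, and each was read from its non-control probe with the highest mean log2 median signal over all arrays. They were 36 of the 37074 gene names on the array and had 85 of its 56605 non-control probes. All 36 chosen probes were well above background on all 23 arrays, none was saturated, and all 36 passed the filter on dim probes, as did 21047 genes in all by the same probe rule. By role the list held 5 regulators, 8 genes of substrate and NADPH supply, 3 of fatty acid synthesis, 9 of elongation and desaturation, 2 of acyl-CoA activation and 9 of glycerolipid assembly.

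All mice were males on a C57Bl6/J background. WT CONT (n = 6) and *Pxr*-/- CONT (n = 6) mice were injected intraperitoneally with corn oil alone, and WT PCN (n = 5) and *Pxr*-/- PCN (n = 6) mice with pregnenolone 16α-carbonitrile (PCN) at 100 mg/kg in corn oil, daily for 4 days. The mice had free access to food and were killed 6 h after lights on, with 6 h since the last dose. The study describes mice at that hour as semi-fasted. WT mice were bought at 6 weeks of age and kept for 2 weeks before allocation, whereas *Pxr*-/- mice came from a colony of the facility, with no age given in the labels, so the effects of genotype and of colony cannot be told apart. Each mouse had its own array, and the labels put the arrays in 2 wash batches with 3 arrays of each group per batch, except for 2 WT PCN arrays in wash batch 2.

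As background, de novo lipogenesis turns citrate exported from mitochondria into acetyl-CoA, malonyl-CoA and then palmitate, with NADPH as the reductant. Palmitate is elongated and desaturated, activated to acyl-CoA, and built into triglyceride on a glycerol backbone. In the liver the transcription factors SREBP-1c, ChREBP and LXRα, which respond to insulin, carbohydrate and oxysterols, drive many of these genes together, and the program is known for its swings with feeding.

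The labels were checked on known genes. *Nr1i2*, the gene of PXR, had group means from 11.44 to 12.10 on the log2 scale, and its probe did not separate the genotypes (*Pxr*-/- against WT in CONT mice -0.03, limma adjusted p = 0.977). Whether that probe lies in the deleted part of the gene is not given in the sources used here, so it checks nothing about the labels. *Cyp3a11*, a known PXR target, rose with PCN in WT mice by 3.55 (limma adjusted p = 4.12e-10), from at most 14.02 to at least 16.90, and was not called in *Pxr*-/- mice (0.31, adjusted p = 0.431). *Alb*, a hepatocyte marker, had group means from 18.47 to 18.56, and *Adipoq*, the defining adipocyte marker, was well above background on 0 of the 23 arrays. Of the 5 adipocyte markers 3 passed the filter, and none was called in any group comparison. Their signals were summed on the linear scale. The log2 of the sum was 7.82 to 9.87 in WT CONT, 8.07 to 9.06 in WT PCN, 7.98 to 10.29 in *Pxr*-/- CONT and 8.44 to 9.34 in *Pxr*-/- PCN mice.

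Promoters are shown for 4 members. *Elovl6* and *Pgd* were the members whose response to PCN was called as different between the genotypes. *Thrsp* had the largest difference among the members, though uncalled, and *Fasn*, also uncalled in that test, encodes the central enzyme. Sequences are the 250 bases before the annotated start, from RefSeq on GRCm38.p6, 5′ to 3′ in the sense of the gene. Capitals mark the letters CCAAT or their reverse complement, the core of the NF-Y box.
Thrsp, chr7:97417551-97417800, minus strand: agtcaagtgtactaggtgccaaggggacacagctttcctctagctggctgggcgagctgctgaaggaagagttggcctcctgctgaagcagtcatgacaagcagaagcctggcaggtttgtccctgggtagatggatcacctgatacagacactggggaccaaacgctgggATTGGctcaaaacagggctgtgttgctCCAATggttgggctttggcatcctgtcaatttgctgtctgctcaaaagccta
Fasn, chr11:120824548-120824797, minus strand: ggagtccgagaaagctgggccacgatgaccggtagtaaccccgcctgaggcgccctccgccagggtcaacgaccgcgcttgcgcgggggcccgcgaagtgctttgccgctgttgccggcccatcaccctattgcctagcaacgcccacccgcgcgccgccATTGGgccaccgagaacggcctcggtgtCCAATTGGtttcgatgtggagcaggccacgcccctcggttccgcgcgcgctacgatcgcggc
Pgd, chr4:149166706-149166955, minus strand: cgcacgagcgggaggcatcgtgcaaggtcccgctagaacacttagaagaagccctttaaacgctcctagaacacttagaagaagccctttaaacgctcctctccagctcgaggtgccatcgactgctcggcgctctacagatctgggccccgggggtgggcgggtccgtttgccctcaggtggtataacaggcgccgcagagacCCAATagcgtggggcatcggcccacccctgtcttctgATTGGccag
Elovl6, chr3:129532136-129532385, plus strand: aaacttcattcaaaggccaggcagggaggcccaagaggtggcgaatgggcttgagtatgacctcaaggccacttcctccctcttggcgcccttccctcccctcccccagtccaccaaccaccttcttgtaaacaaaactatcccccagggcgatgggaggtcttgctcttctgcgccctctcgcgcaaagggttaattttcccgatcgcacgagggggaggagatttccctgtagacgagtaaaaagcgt

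Letters of 5 motifs were searched on both strands in the windows of 300 bases, from 250 before to 50 after each start, of the 30 members matched by symbol. CCAAT was found for 19 of these 30 members (63.3%) against 41.1% of 27025 genes with such windows, CACGTG for 6 members (20%) against 8.09%, and CACNCCAC, a core of sterol response elements, for 5 members (16.7%) against 7.12%. A gene counted if any of its windows matched, and the 30 members had 43 windows, against 32851 for the 27025 genes. By window, CCAAT was in 20 of 43 against 37.4%, CACGTG in 6 of 43 against 7.15% and CACNCCAC in 5 of 43 against 6.24%. The paired carbohydrate response element, searched as CACGTG repeated after 5 bases of any kind, was in none of the 32851 windows, and the direct repeat bound by LXR, searched as AGGTCA repeated after 4 bases, was in no member's window and in 0.0152% of all. In the printed stretches CCAAT letters began 79 and 52 bases before the start for *Thrsp*, 90, 62 and 59 for *Fasn*, where the last pair overlap on opposite strands, and 46 and 9 for *Pgd*. The *Elovl6* window held none of the 5 motifs, and a further *Pgd* window, at another annotated start, held the sterol response core. A match of letters is a description of the sequence.

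Over the mice, the spread within groups was larger in the median for the members than for all genes. The SD left after group and wash batch were fitted had a median of 0.35 log2 units for the 36 members and of 0.17 for all 21047 genes, and it was largest for *Lpin1* (0.95), *Elovl3* (0.82) and *Thrsp* (0.79) and smallest for *Agpat3* (0.11). The mean of the members relative to the WT CONT mean ran from -0.33 to 0.32 over WT CONT mice, and in WT PCN mice it was 0.27, 0.44, 0.25, -0.38 and -0.10 for replicates 1 to 5. In *Pxr*-/- CONT mice it ran from 0.19 to 0.83, with replicates 5 and 6 at 0.83 and 0.68, and in *Pxr*-/- PCN mice from -0.28 to 0.25. Every *Pxr*-/- CONT mouse thus lay above the WT CONT mean, while the other groups held mice on both sides of it. The members varied together over the mice, as given below, so a few mice could move many members at once. Counts of members above or below 0, or at an unadjusted p, are thus not counts of independent genes. Liver RNA was measured in bulk, so fewer cells of a type and less RNA per cell cannot be told apart in any value here.

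**Figure D1:**
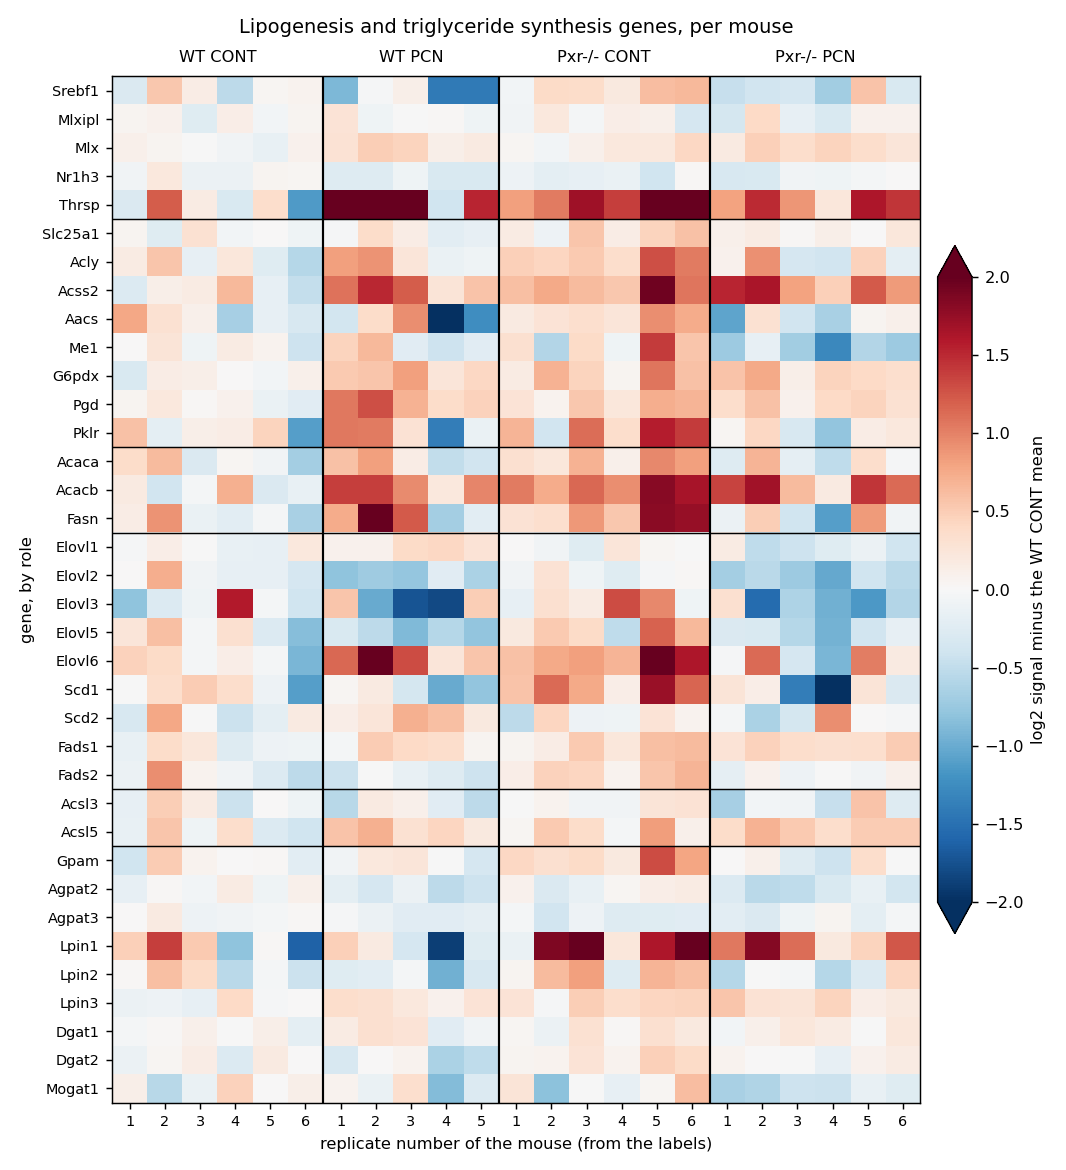
The log2 signal of each of the 36 genes (rows, by role) in each of the 23 mice (columns, by group and replicate number), as the difference from the WT CONT mean, with colours limited to 2 in either direction. *Thrsp*, *Acacb*, *Acss2* and *Elovl6* are red in most WT PCN and *Pxr*-/- CONT mice, and the mean over the members is highest in *Pxr*-/- CONT replicates 5 (0.83) and 6 (0.68).

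The first comparison was PCN against CONT in WT mice, where the receptor is present. Of the 36 members 5 rose and 2 fell, and 29 were not called. A call needed, in limma, a fold above 1.5 and a p of 0.05 or less after adjustment over all probes. By the same rule 3.78% of all 21047 genes were called higher and 2.39% lower. The risers were *Thrsp*, *Elovl6*, *Acacb*, *Acss2* and *Pgd*, and those that fell were *Srebf1* and *Elovl2*. The members' median log2 change was 0.06, against -0.02 for all genes, with 21 of 36 above 0, against 45.6%. By the adjusted p alone 8 were higher, against 11.6% of all genes, and 4 lower, against 12.4%. Groups did not overlap for 3 members upwards, against 5.85% of all genes, and for none downwards, against 6.51%.

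Among the regulators, *Thrsp* (Spot 14), a small protein that promotes the synthesis of fatty acids, rose most. Its log2 signal was 13.51 at the lowest, 14.58 at the median and 15.86 at the highest in WT CONT mice, and 16.92, 17.40, 16.96, 14.25 and 16.17 in the 5 WT PCN mice. Of the PCN mice 4 lay above every CONT mouse, and replicate 4 lay within their range. The log2 change was 1.75 ± 0.44 (SE), or 3.36-fold (limma adjusted p = 0.0061). *Srebf1*, which encodes SREBP-1, the main transcription factor of lipogenic enzymes, went the other way. WT CONT mice had 14.23, 14.80 and 15.29 (lowest, median and highest) and WT PCN mice 13.85, 14.73, 14.86, 13.34 and 13.33, so 3 PCN mice, all of wash batch 1, lay below every CONT mouse and the other 2, of wash batch 2, within their range. The change was -0.70 ± 0.25 (limma adjusted p = 0.0495). This call lay at the threshold. It was lost when any of 18 of the 23 arrays was left out (adjusted p from 0.0527 to 0.142) and under all 4 other scalings of the arrays and the normexp background correction (adjusted p from 0.0606 to 0.26).

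The other 3 regulators were not called. *Mlxipl*, which encodes ChREBP, had 14.77, 15.06 and 15.14 (lowest, median and highest) in WT CONT and 15.29, 14.93, 15.00, 15.04 and 14.93 in WT PCN mice, with a change of 0.03 (95% interval -0.22 to 0.28). *Mlx*, its partner, was 0.32 higher (limma adjusted p = 0.00424) and *Nr1h3*, which encodes LXRα, -0.24 (adjusted p = 0.0386), both under the fold limit.

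In the supply of substrate and NADPH 2 of 8 genes were called, both higher, with changes from -0.42 to 0.96 and a median of 0.29. *Pgd*, an NADPH-producing enzyme of the pentose phosphate pathway, was at 10.27, 10.54 and 10.71 (lowest, median and highest) in WT CONT and at 11.56, 11.79, 11.19, 10.86 and 10.96 in WT PCN mice. All 5 PCN mice lay above all 6 CONT mice. The change was 0.79 ± 0.13 (SE), or 1.73-fold (limma adjusted p = 0.000187), and it was called under all 15 other settings and without each of the 23 arrays in turn. Of these settings, the one without a fold limit could not remove a call. The mean over probes used the same values, as only 1 of the 3 *Pgd* probes passed the filter. *G6pdx*, the first enzyme of that pathway, did not overlap either, with at most 9.27 in CONT and at least 9.36 in PCN mice, but its change of 0.54 (limma adjusted p = 0.0044) was below the fold limit. With *Mlx*, these were the 3 members whose groups did not overlap.

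*Acss2*, which makes acetyl-CoA from acetate, had 12.07, 12.52 and 13.20 (lowest, median and highest) in WT CONT and 13.64, 14.06, 13.76, 12.80 and 13.12 in WT PCN mice. The groups overlapped in replicates 4 and 5, and the change was 0.96 ± 0.25 (limma adjusted p = 0.00921). *Acly*, which makes acetyl-CoA from citrate, had 13.72, 14.30 and 14.85 in WT CONT and 15.11, 15.19, 14.53, 14.16 and 14.21 in WT PCN mice, where replicates 1 and 2 lay above every CONT mouse and the other 3 within their range. Its change of 0.38 (95% interval -0.12 to 0.88) was not called. *Me1*, malic enzyme, was 0.07 (-0.44 to 0.59), and the remaining 3 genes of this role, *Slc25a1*, *Aacs* and *Pklr*, lay between -0.42 and 0.20, uncalled.

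In fatty acid synthesis, *Acacb* rose while *Fasn* and *Acaca* did not pass the test. *Acacb*, the acetyl-CoA carboxylase tied to mitochondria, had 11.62, 11.91 and 12.71 (lowest, median and highest) in WT CONT and 13.38, 13.38, 12.95, 12.22 and 12.98 in WT PCN mice, a change of 1.00 ± 0.26 (limma adjusted p = 0.00781), with 4 of 5 PCN mice above every CONT mouse. *Fasn*, fatty acid synthase, had 14.90, 15.47 and 16.45 in WT CONT and 16.29, 17.74, 16.78, 14.88 and 15.35 in WT PCN mice. Replicates 2 and 3 lay above all CONT mice and replicate 4 below them. The change was 0.71 ± 0.40 (limma adjusted p = 0.214), with a 95% interval from -0.12 to 1.54. *Acaca*, the cytosolic acetyl-CoA carboxylase, was 12.19, 12.86 and 13.51 in WT CONT and 13.47, 13.70, 13.02, 12.39 and 12.50 in WT PCN mice, a change of 0.17 (-0.34 to 0.68).

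Elongation genes moved in both directions. *Elovl6*, the elongase that takes palmitate to stearate, had 10.72, 11.68 and 12.10 (lowest, median and highest) in WT CONT and 12.78, 13.68, 12.94, 11.87 and 12.19 in WT PCN mice, so 4 of 5 PCN mice lay above all CONT mice. Its change was 1.09 ± 0.36, or 2.13-fold (limma adjusted p = 0.0298). Without WT PCN replicate 1, 2 or 3 or WT CONT replicate 6 the adjusted p was 0.0608, 0.11, 0.0563 and 0.0685. *Elovl2*, an elongase of polyunsaturated fatty acids, had 13.86, 14.08 and 14.92 in WT CONT and 13.39, 13.49, 13.43, 13.97 and 13.57 in WT PCN mice, with 1 PCN mouse inside the CONT range and the other 4 below it. Its change was -0.63 ± 0.15 (limma adjusted p = 0.00491), and it fell under the fold limit without WT PCN replicate 1 (-0.58) or WT CONT replicate 2 (-0.48) and under the other scalings (-0.56 to -0.41). *Scd1*, stearoyl-CoA desaturase, was 14.29, 15.56 and 15.90 in WT CONT and 15.43, 15.57, 15.04, 14.39 and 14.60 in WT PCN mice, a change of -0.39 (-1.26 to 0.49). The other 6 genes of this role were not called and ranged from -0.72 (*Elovl3*) to 0.40 (*Scd2*).

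No gene of glycerolipid assembly was called, with changes from -0.33 to 0.26 over its 9 members. *Gpam*, which encodes the mitochondrial enzyme of the first step, was 13.49, 13.91 and 14.40 (lowest, median and highest) in WT CONT and 13.82, 14.11, 14.13, 13.88 and 13.56 in WT PCN mice, a change of 0.03 (-0.32 to 0.38). *Dgat2*, which adds the last acyl chain of triglyceride, was 15.77, 16.07 and 16.23 in WT CONT and 15.72, 16.06, 16.11, 15.41 and 15.53 in WT PCN mice, a change of -0.26 ± 0.11 (limma adjusted p = 0.0987). *Agpat2*, of the next acylation, was -0.31 (adjusted p = 0.0215), below the fold limit. Of the acyl-CoA synthetases, *Acsl5* was 0.46 (adjusted p = 0.0333), below the fold limit, and *Acsl3* -0.20.

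**Figure D2:**
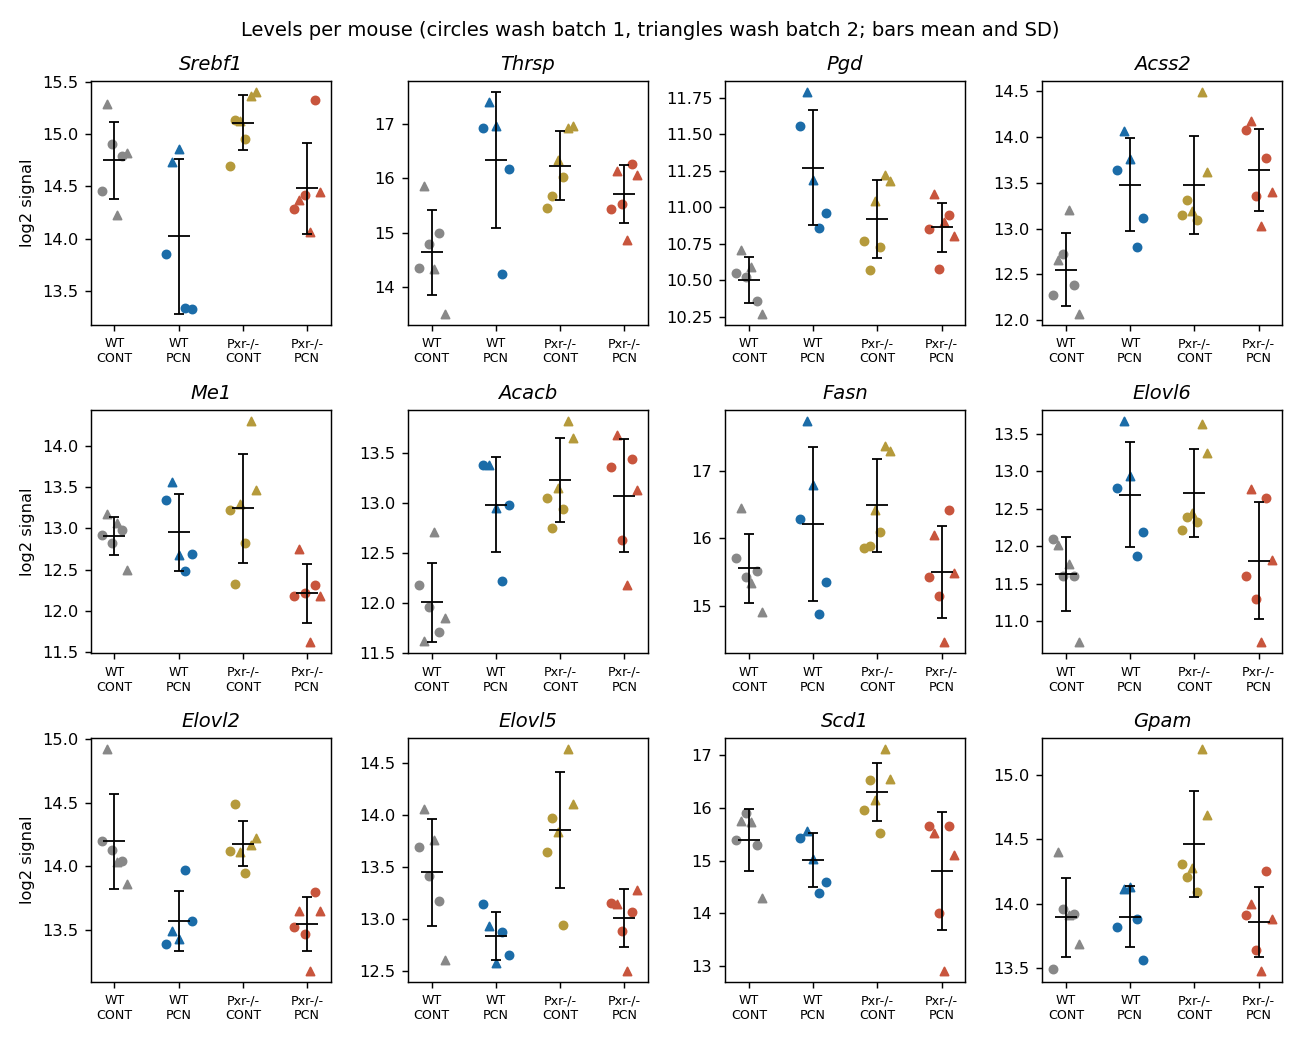
Log2 signal per mouse of 12 members, the 11 called in any group comparison and *Fasn*, in the 4 groups, with circles for wash batch 1, triangles for wash batch 2 and bars for mean and SD; vertical axes differ between genes and do not start at 0. *Pgd* in WT PCN mice lies above every WT CONT mouse, and *Elovl2* in *Pxr*-/- PCN mice, at 13.80 or less, lies below every *Pxr*-/- CONT mouse.

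The second comparison, PCN against CONT in *Pxr*-/- mice, asked what PCN does where the receptor gene is deleted. No member rose and 5 fell, *Scd1*, *Me1*, *Elovl5*, *Elovl2* and *Gpam*, and 31 were not called. Of all genes 1.43% were called higher and 0.86% lower. The members' median was -0.38, against -0.01 for all genes, and 6 of 36 lay above 0, against 46.9%. At an unadjusted p under 0.05 limma gave 1 member higher and 17 lower, against 10.6% and 12.3% of all genes. By the adjusted p alone 0 were higher and 6 lower, against 3.24% and 3.63%, which added *Agpat2* (-0.36, adjusted p = 0.0196).

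*Scd1*, which makes oleate from stearate, fell most. It had 15.52, 16.34 and 17.12 (lowest, median and highest) in *Pxr*-/- CONT and 12.91, 15.31 and 15.65 in *Pxr*-/- PCN mice, with 1 CONT mouse within the PCN range. Replicates 3 and 4 of the PCN mice, at 14.01 and 12.91, lay lowest. The change was -1.5 ± 0.40, or 2.83-fold lower (limma adjusted p = 0.0287). *Me1*, a source of NADPH, had 12.33, 13.27 and 14.31 in CONT and 11.62, 12.20 and 12.75 in PCN mice, a change of -1.03 ± 0.24 (limma adjusted p = 0.0119), and again 1 CONT mouse lay within the PCN range.

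The elongases *Elovl5* and *Elovl2*, which act on polyunsaturated fatty acids, also fell. *Elovl5* had 12.94, 13.90 and 14.63 (lowest, median and highest) in *Pxr*-/- CONT and 12.50, 13.10 and 13.28 in *Pxr*-/- PCN mice, a change of -0.85 ± 0.23 (limma adjusted p = 0.0294), and the lowest CONT mouse lay within the PCN range. *Elovl2* had 13.95, 14.15 and 14.49 in CONT and 13.18, 13.59 and 13.80 in PCN mice. It was the only member whose *Pxr*-/- groups did not overlap, against 1.58% of all genes downwards and 1.57% upwards, with a change of -0.63 ± 0.15 (limma adjusted p = 0.0127). *Gpam* had 14.09, 14.30 and 15.20 in CONT and 13.48, 13.90 and 14.25 in PCN mice, a change of -0.60 ± 0.16 (limma adjusted p = 0.028).

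*Fasn*, *Elovl6*, *Acly*, *Acaca* and *Srebf1* were lower in the mean without passing the test, while the regulators *Mlx* (0.18) and *Nr1h3* (0.03) were not lower. *Fasn* had 15.85, 16.26 and 17.36 (lowest, median and highest) in *Pxr*-/- CONT and 14.46, 15.45 and 16.41 in *Pxr*-/- PCN mice, with an overlap of 15.85 to 16.41 and a change of -0.99 (95% interval -1.77 to -0.20, limma adjusted p = 0.123). *Elovl6*, at 12.22, 12.42 and 13.64 in CONT and 10.72, 11.72 and 12.76 in PCN mice, was -0.90 (adjusted p = 0.115). *Acly*, *Acaca* and *Srebf1* were -0.59 (adjusted p = 0.13), -0.51 (0.206) and -0.62 (0.126). Their groups overlapped too.

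The 4 members that rose in WT mice beside *Elovl6* were not called here. *Pgd*, at 10.57, 10.91 and 11.22 in CONT and 10.58, 10.87 and 11.09 in PCN mice, was -0.06 (95% interval -0.31 to 0.20), *Acss2* 0.17, *Acacb* -0.16 and *Thrsp* -0.52 (adjusted p from 0.515 to 0.842). *Thrsp* had 15.46, 16.19 and 16.97 in CONT and 14.87, 15.80 and 16.26 in PCN mice. *Mlxipl* was -0.04 and *Dgat2* -0.20, uncalled.

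How many members fell in *Pxr*-/- mice depended on single arrays. The count was 8 without *Pxr*-/- PCN replicate 5, which adds *Fasn* (-1.24, limma adjusted p = 0.0469), *Elovl6* (-1.11, 0.0484) and *Srebf1* (-0.83, 0.0242), 1 without *Pxr*-/- PCN replicate 4, 2 without *Pxr*-/- PCN replicate 3 or *Pxr*-/- CONT replicate 5 or 6, and 3 without *Pxr*-/- CONT replicate 2. Lower calls over all 32087 probes moved too, from 224 with every array. They numbered 270, 144 and 162 without *Pxr*-/- PCN replicates 5, 4 and 3. Without *Pxr*-/- CONT replicates 5, 6 and 2 they numbered 159, 211 and 235. In a fit of the *Pxr*-/- arrays alone *Scd1* (adjusted p = 0.0737) and *Gpam* (0.0677) lost their calls.

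The third comparison was the test of whether the genotypes responded differently, the effect in WT minus the effect in *Pxr*-/- mice. It called 2 members, both higher in WT, and none lower, against 0.808% and 0.242% of all genes. *Elovl6* differed by 1.99 ± 0.49 (95% interval 0.98 to 3.01, limma adjusted p = 0.0423), a rise of 1.09 in WT set against -0.90 in *Pxr*-/- mice. *Pgd* differed by 0.85 ± 0.18 (0.48 to 1.22, limma adjusted p = 0.0143), from 0.79 and -0.06. The members' median difference was 0.27, against -0.01 for all genes, with 31 of 36 above 0, against 47.9%. At an unadjusted p under 0.05 limma gave 11 members higher and 2 lower, against 7.85% and 7.22%. The adjusted p alone also gave 2 higher, against 1.05%.

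The other risers and core enzymes were not called here. *Thrsp* differed by 2.27 ± 0.60 (limma adjusted p = 0.0661), *Fasn* by 1.70 ± 0.55 (adjusted p = 0.136), *Acacb* by 1.16 (0.115), *Me1* by 1.11 (0.116) and *Acly* by 0.97 (0.163). All 8 genes of substrate and NADPH supply had a difference above 0, from 0.23 to 1.11. *Elovl2*, which fell in both genotypes, differed by 0.00 (95% interval -0.44 to 0.44), and *Srebf1* by -0.08 (-0.80 to 0.65). For *Mlxipl* the difference was 0.07 (-0.28 to 0.41), for *Dgat2* -0.06 and for *Gpam* 0.63 (adjusted p = 0.2).

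The *Pgd* difference was called without each of the 23 arrays in turn, while that of *Elovl6* was lost without any 1 of 14 of them (adjusted p from 0.0515 to 0.11) (0.11 without WT PCN replicate 2), without a batch term (adjusted p = 0.0518) and without the filter on dim probes (0.0715). *Thrsp* became called without WT PCN replicate 4 (2.75, limma adjusted p = 0.00406), without WT CONT replicate 2 (2.46, 0.0383), with the deposited values of the authors (2.41, 0.0444) and with a stacked quantile normalization (2.40, 0.0475).

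**Figure D3:**
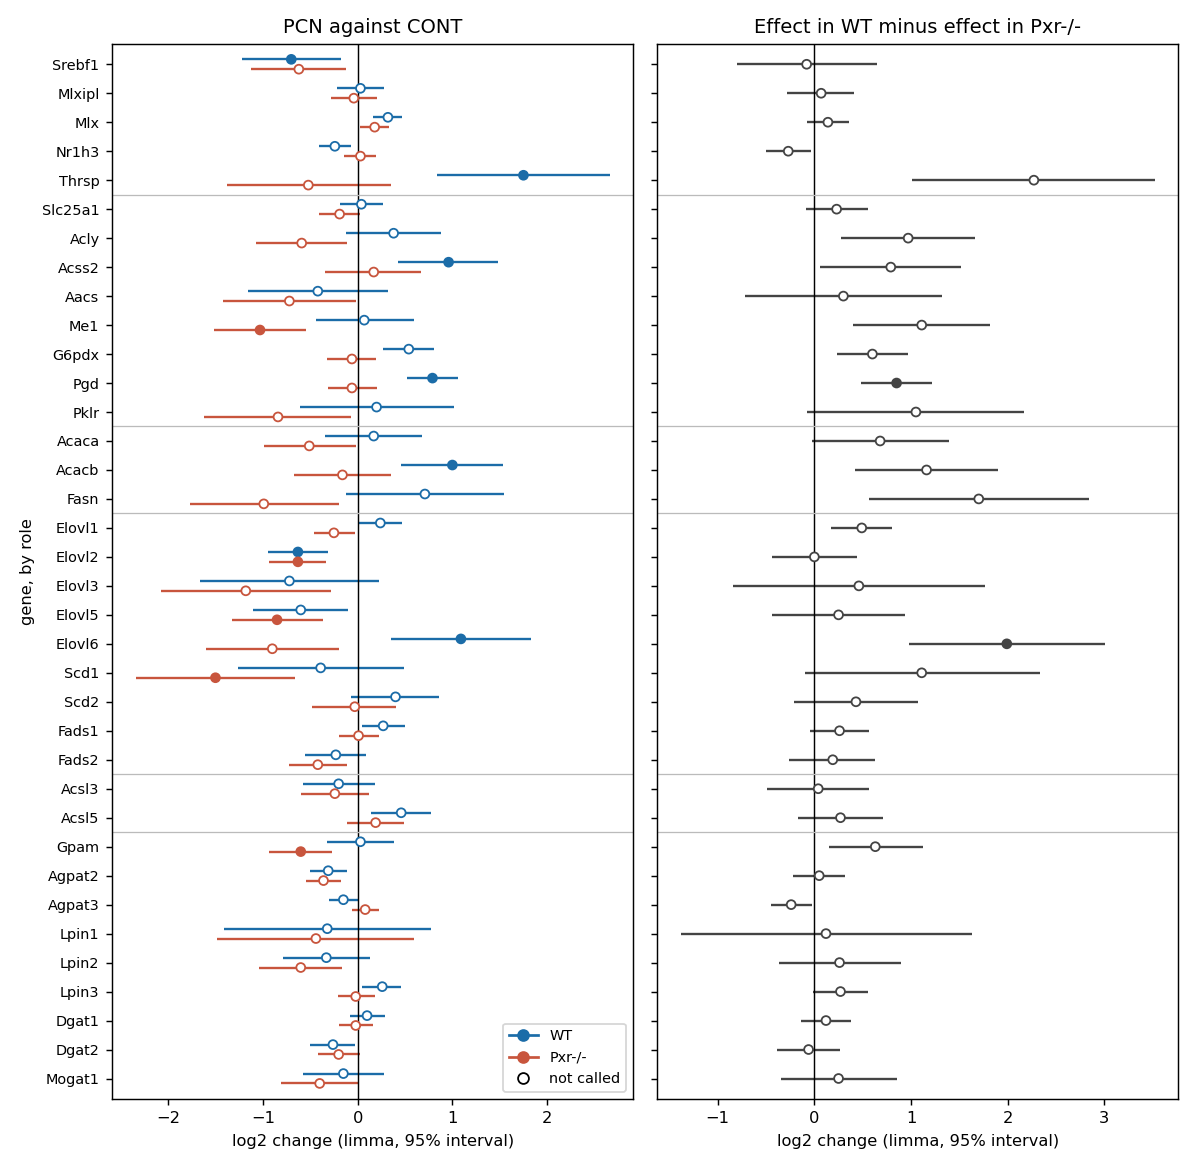
Log2 change of the 36 members with 95% intervals from limma, PCN against CONT in WT and *Pxr*-/- mice (left) and the difference between these effects (right), filled where called. *Elovl6* (1.99) and *Pgd* (0.85) are the filled points on the right, and 31 of the 36 differences lie above 0.

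Genotypes were then compared without PCN. *Pxr*-/- CONT mice share their arrays with the PCN comparison in *Pxr*-/- mice, and WT CONT mice theirs with that in WT mice, so these values are not independent of those above. Of the 36 members 1, *Acacb*, was higher in *Pxr*-/- mice and none lower, against 0.228% and 0.0808% of all genes. Its levels were 11.62, 11.91 and 12.71 (lowest, median and highest) in WT CONT and 12.75, 13.10 and 13.82 in *Pxr*-/- CONT mice, which did not overlap. The difference was 1.22 ± 0.25 (limma adjusted p = 0.0208). It lost its call without WT CONT replicate 2, 5 or 6 or *Pxr*-/- CONT replicate 5 or 6 (1.12 to 1.18, adjusted p from 0.0559 to 0.0713) and under the stacked normalization (1.08, adjusted p = 0.062). The call rested on 1 of the 3 *Acacb* probes, which ranged from 0.05 to 1.22, and their mean was 0.48 (adjusted p = 0.211).

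The members' median was 0.37, against 0 for all genes, with 29 of 36 above 0, against 48.6%. At an unadjusted p under 0.05 limma gave 20 members higher and 1 lower, against 6.22% and 5.97% of all genes. These are not counts of independent genes, and the members' mean was highest in *Pxr*-/- CONT replicates 5 (0.83) and 6 (0.68). *Elovl6* was the other member whose groups did not overlap, with at most 12.10 in WT CONT and at least 12.22 in *Pxr*-/- CONT mice, so 2 of 36 did so upwards, against 0.461%. Its difference of 1.08 (limma adjusted p = 0.206) was not called. *Thrsp* was 1.59 (adjusted p = 0.108), *Lpin1*, a phosphatidate phosphatase, 1.43 (0.272), *Fasn* 0.93 (0.357), *Acss2* 0.92 (0.11), *Scd1* 0.91 (0.395) and *Acly* 0.68 (0.252). All 8 genes of substrate and NADPH supply and all 3 of fatty acid synthesis lay above 0. *Acaca* (0.52), *Gpam* (0.57), *Srebf1* (0.36), *Dgat2* (0.22) and *Mlxipl* (0.00, 95% interval -0.24 to 0.23) were not called.

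Under PCN, no member was called between the genotypes, against 0.732% of all genes higher and 1.36% lower in *Pxr*-/- mice, and the members' median was -0.01. At an unadjusted p under 0.05 limma gave 2 higher and 4 lower, against 12.8% and 12.7%, and every member's groups overlapped, against 3.21% upwards and 3.67% downwards. By the adjusted p alone *Elovl1*, an elongase of very long chains (-0.49, limma adjusted p = 0.00856), and *Pgd* (-0.43, adjusted p = 0.0431) were lower in *Pxr*-/- PCN mice, below the fold limit, so 2 were lower and 0 higher by it, against 4.96% and 3.92%. This comparison depended on scaling. The authors' deposited values moved the median of all probes in it from 0.01 to -0.18 and that of the members to -0.29, and called 4 members lower. With them 1370 of 32574 probes were called lower, against 369 of 32087 in the fit above.

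The members' median changes were larger in size in wash batch 2 than in wash batch 1. From a fit with a term for each group in each batch, the members' median change with PCN was -0.08 in wash batch 1 and 0.24 in wash batch 2 in WT mice, and -0.17 and -0.52 in *Pxr*-/- mice. The median difference between the responses was 0.13 and 0.74, that between genotypes in CONT mice 0.16 and 0.60, and that between genotypes under PCN 0.10 and -0.18. The medians of all genes were between -0.03 and 0.01 in these 10 comparisons. The members' medians for PCN in WT mice and for genotype under PCN therefore changed sign between the batches, and the other 3 kept theirs.

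By gene, *Fasn* with PCN in WT mice was -0.04 in wash batch 1 and 1.70 in wash batch 2 (limma adjusted p = 0.969 and 0.0434), and the difference between its responses 0.24 and 3.39 (0.908 and 0.0196). *Elovl6* was 0.51 and 1.81 in WT mice (0.503 and 0.0334) and *Thrsp* 1.06 and 2.61 (0.226 and 0.0173). *Pgd* was called in WT mice in both batches, at 0.65 (adjusted p = 0.0171) and 0.96 (0.0059). *Srebf1* fell in wash batch 1 (-1.21, adjusted p = 0.00425) and was 0.01 in wash batch 2 in WT mice, while in *Pxr*-/- mice it was -0.24 in wash batch 1 and fell in wash batch 2 (-1.0, 0.044). Within wash batch 1 the count of members called in WT mice was 1 higher (*Pgd*) and 2 lower (*Srebf1* and *Aacs*, at -1.44), where all genes gave 4.45% and 3.05%. Within wash batch 2 it was 5 higher, *Thrsp*, *Elovl6*, *Fasn*, *Acss2* (1.27) and *Pgd*, and 1 lower, *Elovl2* (-0.81), where all genes gave 2.39% and 1.91%. In *Pxr*-/- mice it was 0 and 0 in wash batch 1 (0.00475% and 0%) and 0 and 4 in wash batch 2 (0.884% and 0.765%), *Me1* (-1.51), *Elovl5* (-1.21), *Srebf1* and *Gpam* (-0.94). For the difference between the responses it was 0 in wash batch 1 (0.475% of all genes higher) and 5 higher in wash batch 2 (0.946%), *Thrsp* (3.67), *Fasn*, *Elovl6* (3.16), *Pgd* (1.18) and *Slc25a1*, the mitochondrial citrate carrier (0.74). For genotype in CONT mice it was 0 in wash batch 1 and 2 higher in wash batch 2 (0.0808% and 0.499%), *Acacb* (1.48) and *Slc25a1* (0.66). For genotype under PCN it was 1 higher in wash batch 1 (0.442%), *Srebf1* (1.17), and 0 in wash batch 2 (0.233%).

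None of these differences between wash batches was itself called. With limma, 0 members and 0 of all genes passed in wash batch 2 minus wash batch 1 for either PCN effect, for the difference between them or for the genotype in CONT or PCN mice, and the smallest adjusted p of a member was 0.145, 0.825, 0.125, 0.144 and 0.835. At an unadjusted p under 0.05 the counts were 7, 6, 11, 6 and 5 of 36 members, where all genes gave 10.5%, 5.53%, 12.6%, 12% and 5.54%. As an additive term, wash batch 2 against wash batch 1 had a members' median of 0.22, with 33 of 36 above 0, against 52.5% of all genes. It called 0 members, against 0% of all genes higher and 0.138% lower, and 8 of 36 had an unadjusted p under 0.05, against 11.8%. What else differed between the mice of the 2 wash batches is not in the labels, and its part was not tested.

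**Figure D4:**
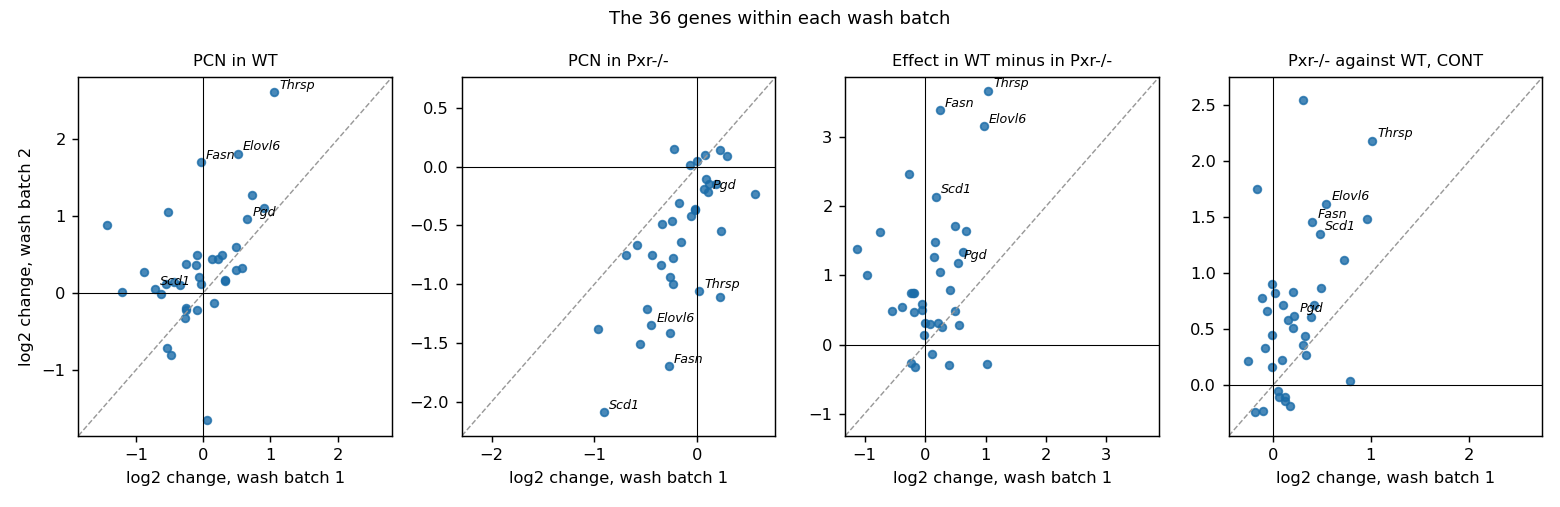
Log2 change of each of the 36 members in wash batch 1 (horizontal) and wash batch 2 (vertical) for PCN in WT, PCN in *Pxr*-/-, the difference between them and genotype in CONT mice, with the line of equality dashed. Most points of the 2 panels on the right lie above the line, *Fasn* at 0.24 and 3.39 in the third, and those of PCN in *Pxr*-/- mostly below it.

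The members also varied together over the mice after group and wash batch were taken out as additive terms. A group effect that differed between the wash batches stays in these values. For PCN in WT mice, wash batch 2 minus wash batch 1 was 1.73 for *Fasn*, 1.3 for *Elovl6*, 1.55 for *Thrsp* and 1.22 for *Srebf1*. It was 0.58 for *Acaca* and 0.22 for *Acly*, and none was called. The r values therefore cannot tell such shifts from variation between mice of the same group and batch. The log2 signal of *Fasn* over the 23 arrays had a Pearson r of 0.92 with *Elovl6*, 0.87 with *Thrsp*, 0.86 with *Acaca*, 0.81 with *Acly* and 0.78 with *Srebf1*. Of the other 35 members 17 (48.6%) had an r above 0.5, against 748 of 20991 genes (3.56%), and the median r was 0.49, against -0.01. Regulators other than *Srebf1* and *Thrsp* were lower, with *Mlx* at 0.48, *Mlxipl* at 0.10 and *Nr1h3* at 0.07, and 5 members were below 0, down to -0.20 for *Scd2*. Outside *Fasn*, the closest of all pairs were *Acly* with *Acaca* (0.92) and *Elovl6* with *Acly* and with *Acaca* (both 0.89), followed by *Scd1* with *Elovl6* and with *Acss2* and *Pgd* with *Acly* (each 0.84).

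Among non-members, the 5 genes with the highest r with *Fasn* were *Slc25a44*, a mitochondrial carrier (0.89), *Slc2a4*, which encodes the glucose transporter GLUT4 (0.88), *Gpi1*, a glycolytic isomerase (0.86), and 2 probes named only by an identifier (0.93) or a position (0.87). These are descriptions over arrays that share their processing and normalization.

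**Figure D5:**
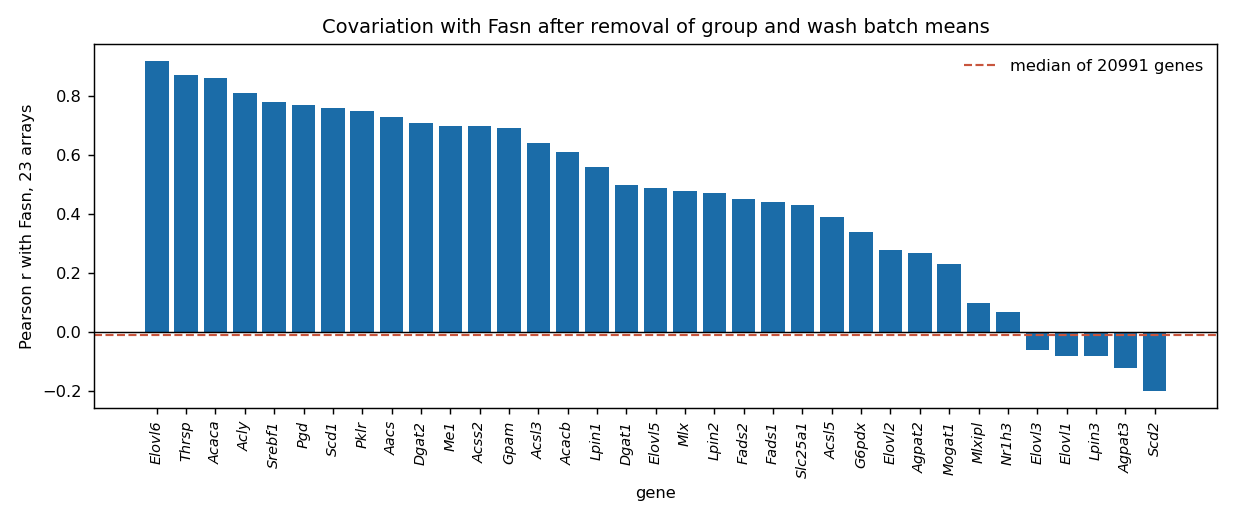
Pearson r of each of the other 35 members with *Fasn* over the 23 arrays, with the median of 20991 genes dashed. Group and wash batch were removed as additive terms. The r falls from 0.92 for *Elovl6* to -0.20 for *Scd2*, and 17 of the 35 lie above 0.5.

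Different probes of a member did not always agree. *Thrsp* was called higher in WT mice by both its probes (1.75 and 2.01), and *Scd1*, *Me1* and *Gpam* lower in *Pxr*-/- mice by both of theirs. *Elovl5* was called lower in *Pxr*-/- mice by 1 of its 2 probes (-0.85, and -0.73 for the uncalled one). *Acacb* was called in WT mice by 1 of 3 probes and *Acss2* by 2 of 4, and as means over all their probes they were 0.24 and 0.39, uncalled. *Fads2*, the delta-6 desaturase, was not called by its brightest probe (-0.23 in WT and -0.42 in *Pxr*-/- mice), while a dimmer one fell in both genotypes (-1.90, limma adjusted p = 0.000694, and -1.55, 0.00969) and another was called lower in WT mice (-0.59, 0.00638). A dimmer *Fads1* probe was called lower in *Pxr*-/- mice (-0.92, adjusted p = 0.05), and a dimmer *Elovl1* probe differed between the responses (0.76, 0.00124). That *Elovl1* probe was also called lower in *Pxr*-/- than in WT mice under PCN (-0.59), where no chosen probe of a member was called. The chosen probes lay on mm9 at chromosome 7, 104561649 to 104561708, for *Thrsp*, at chromosome 4, 148524293 to 148524352, for *Pgd*, at chromosome 11, 120668460 to 120668519, for *Fasn* and at chromosome 3, 129337756 to 129337815, for *Elovl6*.

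Of 38 other genes of the pathway, 36 were on the array and 35 passed the filter. With PCN in WT mice 2 rose and none fell. *Pnpla3*, a lipase-like protein of lipid droplets, had 5.15, 5.36 and 6.71 (lowest, median and highest) in WT CONT and 8.67, 9.03, 9.03, 7.16 and 7.79 in WT PCN mice, a change of 2.86 ± 0.47 (limma adjusted p = 0.000199), although its probe was well above background on only 3 of the 6 WT CONT arrays. *Insig2*, which retains SREBP in the endoplasmic reticulum, rose by 1.06 (adjusted p = 0.0068). In *Pxr*-/- mice none rose and 2 fell, *Ppargc1b*, a coactivator of SREBP-1 (-1.07, adjusted p = 0.00255), and *Scd3*, a further desaturase (-1.60, 0.0299). The test between the responses called *Pnpla3* (2.86, adjusted p = 0.0246) and *Insig2* (1.53, 0.0387) higher and *Hacd3*, a dehydratase of the elongation cycle, lower (-0.64, 0.00767). Between the genotypes 0 of 35 were called in CONT mice, and under PCN 1 was, *Insig2* (-1.41, adjusted p = 0.0028). The medians of the 35 genes were 0.05 in WT, -0.04 in *Pxr*-/- mice and 0.04 for the difference.

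As lipogenic genes swing with feeding, 10 genes of the feeding and fasting response were read beside them. With PCN in WT mice 3 fell, *Pck1*, of gluconeogenesis (-1.70, limma adjusted p = 0.000123), *Ppargc1a*, a coactivator of fasting genes (-1.20, 9.88e-05), and *Cpt1a*, the entry step of fatty acid oxidation (-0.77, 4.11e-05), and *Pdk4*, which shuts off pyruvate oxidation, rose (1.00, 0.0026). In *Pxr*-/- mice *Ppargc1a* fell (-0.96, 0.0031) and the other 9 were not called. The response of *Cpt1a* differed between the genotypes (-0.79, 0.0052). Between the genotypes in CONT mice 0 of the 10 were called, with a median of 0.21, and under PCN 3 were higher in *Pxr*-/- mice, *Cpt1a* (0.64), *Pck1* (1.27) and *Ppargc1a* (0.60).

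Of the markers of other cells, none of Kupffer, endothelial, lymphocyte or pancreas cells was called in the 5 group comparisons. With PCN in each genotype 1 of 5 stellate and 1 of 4 blood markers rose. The blood list had only this 1 marker above 0, with a median change of -0.30 in WT and -0.33 in *Pxr*-/- mice. The stellate list had medians of 0.08 and 0.09, with 3 and 5 of its 5 markers above 0. *Sox9*, 1 of 5 cholangiocyte markers, rose in WT mice (0.76, limma adjusted p = 0.0109), and of the 6 hepatocyte markers *Apoa1* rose in *Pxr*-/- mice (0.62, adjusted p = 0.000955). Under PCN *Tat*, a hepatocyte marker, was higher (0.73, adjusted p = 0.0436) and *Sox9* lower (-0.76, 0.0279) in *Pxr*-/- than in WT mice. *Col1a1*, of stellate cells, had group means of 8.55 in WT CONT, 11.76 in WT PCN, 8.50 in *Pxr*-/- CONT and 10.46 in *Pxr*-/- PCN mice, and *S100a8*, of neutrophils, 8.78, 11.00, 8.93 and 11.13. The log2 of the summed linear signal of the 6 hepatocyte markers lay between 20.06 and 20.43 in all 4 groups. The part of feeding or of other cells in the members' values was not tested.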

How the data were processed

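Liver RNA of 23 mice was hybridised to 1-colour Agilent arrays labelled with Cy3, 1 array per mouse. Spot intensities were deposited as scanned, with flags for background, saturation and outliers, and were made by the authors with Agilent Feature Extraction 10.10.1.1 per the file headers, with probe annotation on mm9. The authors also deposited a table of log2 values of 32574 probes, which per the study's methods had been filtered, corrected for wash batch and normalized with CrossNorm. Its scale and direction are those of log2 expression (column medians 7.54 to 8.01), its stacking is not given in the sources used here, and it served as an alternative only.

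From the scanner files, median signals were set to log2 and quantile normalized over all arrays, after 2225 outlier spots were set missing and spots of 300 probes with several spots were averaged. Probes well above background on over 50% of the arrays of at least 1 group were kept, 32087 of 56605, which left 83 missing values. limma 3.58.1 in R 4.3.3 fitted group and wash batch to all kept probes, with Benjamini-Hochberg adjustment over all of them, and a call needed an adjusted p of at most 0.05 and a fold above 1.5. Within-batch values came from a further limma fit with a term for each group in each wash batch. Quantile normalization and the limma fit were run on simulated arrays with known changes for PCN in WT mice. The simulated noise was independent between probes, and the other steps were not simulated. All intervals are 95% intervals from limma, and the number of arrays limits the precision. Between 29510 and 33321 probes were well above background per array.

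Groups came from the sample titles. The labels allot 6 mice to each group, and 5 WT PCN arrays were analysed here. Named with values for each group are members called in any group comparison and *Srebf1*, *Mlxipl*, *Thrsp*, *Acly*, *Acaca*, *Fasn*, *Scd1*, *Elovl6*, *Gpam* and *Dgat2*; others were named after their values were seen. The members, gene lists and tests were chosen with earlier results of these data known. Replicate numbers were not used to pair the mice in the main fit. Alternatives were other scalings, background correction, filters, batch and slide terms, the replicate block, single wash batches, the mean over probes, no fold limit and leaving out each array. Promoters came from RefSeq on GRCm38.p6, where 30 of the 36 members matched.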

Additional observations from a re-analysis of the deposited data

Results flagged for a closer look

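Within 6 of the 144 sets of mice examined, that is, the 36 members in each of the 4 groups, 1 mouse stood apart from the rest of its group by Dixon's test, and chance alone gives about 1 in 20 (5%). In WT CONT mice these were *Elovl2* in replicate 2 (14.92, with the nearest mouse at 14.20), *Elovl3* in replicate 4 (13.13 and 11.50), *Lpin3* in replicate 4 (9.11 and 8.71) and *Elovl6* in replicate 6 (10.72 and 11.60). In WT PCN mice *Nr1h3* stood apart in replicate 3 (13.53 and 13.37), and in *Pxr*-/- PCN mice *Srebf1* in replicate 5 (15.32 and 14.45). The response to PCN differed between the genotypes for *Elovl6* (1.99, limma adjusted p = 0.0423) and *Pgd* (0.85, limma adjusted p = 0.0143).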

How the results depend on the processing

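Of the values of single genes under settings other than leaving out an array, 436 kept direction and side of the threshold, 47 were weaker, 3 stronger and 3 reversed. This count leaves out uncalled values whose interval spanned 0. It includes the setting without a fold limit, which could not weaken a call. Among the counted values those reversed were *Srebf1* (0.01) and *Dgat2* (0.12) with PCN in WT mice in wash batch 2 alone and *Dgat2* between genotypes in CONT mice in wash batch 1 alone (-0.01), and the cause was not tested. Some of the values left out changed sign more often, over settings that include leaving out an array. *Mlxipl* between genotypes in CONT mice kept its sign in 27 of 38 settings. For the difference between responses *Srebf1* kept it in 28 of 37 and *Dgat2* in 31 of 37. By contrast, *Acly* with PCN in WT mice kept it in 38 of 38. Fits of wash batch 1 alone, which have fewer arrays, called 1 member higher with PCN in WT, 0 lower in *Pxr*-/-, 0 for the difference between responses, 0 for genotype in CONT and 1 higher for genotype under PCN. Of all 32087 probes they called 1188 higher in WT, 21 lower in *Pxr*-/- mice, and 95 higher and 21 lower for the difference. For genotype they called 13 probes higher and 1 lower in CONT, and 123 higher under PCN. Wash batch 2 alone called 2 higher and 0 lower in WT, 0 lower in *Pxr*-/- and 0 for the difference, whose median was 0.74. Of all probes it called 636 higher and 407 lower in WT, 55 lower in *Pxr*-/- mice, and 109 higher and 18 lower for the difference. For other settings the cause was not tested. The 2 lower calls in WT became 0 under processed signals or median signals scaled to the 75th percentile, under the stacked quantile normalization and with the deposited values, and 1 under normexp, no filter on dim probes or only the groups compared. Without a fold limit 8 were higher and 4 lower in WT, and 2 lower for genotype under PCN, the last also 2 with median signals at the 75th percentile and 4 under the stacked normalization (median -0.28) and the deposited values (median -0.29). In that comparison 1316 of 32087 probes were called lower under the stacked normalization and 1370 of 32574 with the deposited values. The deposited values called 3 lower in *Pxr*-/- mice, and no filter and no batch term each 1 for the difference. The mean of all probes called 3 higher in WT and 0 for genotype in CONT, as did the stacked normalization for the latter (0).

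The stacked normalization moved the median of all probes with PCN in WT from -0.02 to 0.11, in CONT mice between genotypes from -0.01 to -0.11 and under PCN from 0.01 to -0.18. The share of higher among all calls moved from 61.3% to 84.1% in WT, 63.9% to 75% in *Pxr*-/- mice, 76.7% to 89.1% for the difference, 77% to 47.3% in CONT and 35.6% to 5.12% under PCN. With the deposited values the members' medians were 0.26, -0.33, 0.41 and 0.26 for the first 2 effects, their difference and genotype in CONT.

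Without each array in turn, members called higher in WT numbered 4 to 6 and lower 0 to 2 (0 without WT PCN replicate 1 or WT CONT replicate 2), lower in *Pxr*-/- 1 to 8, higher for the difference 1 to 3, higher for genotype in CONT 0 to 2 and lower under PCN 0 to 1, that is, without *Pxr*-/- CONT replicate 2 or 5 or WT PCN replicate 3. Over all 32087 probes these fits called 993 to 1169 higher and 651 to 774 lower in WT. They called 144 to 290 probes lower in *Pxr*-/- mice and 181 to 240 higher for the difference. For genotype they called 49 to 81 probes higher in CONT and 298 to 439 lower under PCN. *Acacb* and *Acss2* in WT lost their calls in each wash batch alone. Mice of different groups with the same replicate number did not deviate together in the median (r 0.003, from -0.17 to 0.611 over 33 pairs). Pairs with different numbers had a median r of -0.019, from -0.304 to 0.357 over 165 pairs, so the highest r was in a pair with the same number. With the replicate block the counts were 5 higher and 2 lower in WT, 6 lower in *Pxr*-/-, 3 for the difference, 1 in CONT and 0 under PCN, with *Thrsp* added to the difference (2.21, limma adjusted p = 0.042). A fit of only the groups compared does not apply to the difference.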
